A study of Homo sapiens with 6 samples.

Results

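The genes described here are 10 sialyltransferases, the enzymes of the Golgi that cap glycans with sialic acid, chosen from a list of symbols: ST3GAL1, ST3GAL2, ST3GAL3, ST3GAL4, ST3GAL6, ST6GAL1, ST6GALNAC2, ST6GALNAC3, ST6GALNAC4 and ST6GALNAC6. Of these, 9 were among the 12703 genes of the count table and all 9 entered the test, while ST6GALNAC3 had no row and was not analysed here. The RNA came from PC3, a human cell line established from a bone metastasis of prostate cancer. The GCNT1 overexpression group held 3 PC3 lines stably transduced with GCNT1 lentiviral particles, and the control group held 3 PC3 lines that carried negative-control (Lenti-ORF) particles, so that both groups had been through transduction. Each line gave 1 stranded mRNA library. The replicates are labelled as biological, and the p-values measure the spread between these lines. No source used here gives the promoter of the vector, nor whether a line was a single clone. Nor is it stated whether the lines of a group came from separate transductions. If they did not, the p-values do not measure the spread between transductions. The common biological coefficient of variation from edgeR, the spread between libraries of a group beyond counting error, was 0.0515.

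Sialyltransferases take sialic acid from its activated form, CMP-sialic acid, and place it at the end of a growing sugar chain, where it blocks further extension. Their names give the linkage and the acceptor. ST3GAL enzymes join sialic acid to galactose in an alpha-2,3 linkage. ST6GAL enzymes join it to galactose in an alpha-2,6 linkage, and ST6GALNAC enzymes join it mainly to N-acetylgalactosamine in an alpha-2,6 linkage. GCNT1, the overexpressed enzyme, branches the core 1 disaccharide of O-glycans into core 2, and ST3GAL1 sialylates that same core 1 disaccharide. In prostate cancer, sialylation enzymes draw interest because sialyl Lewis X, a ligand of selectins, carries an alpha-2,3-linked sialic acid. The comparison of the groups asks which of these enzymes change in transcript level when GCNT1 is upregulated.

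Library totals lay between 11392213 and 13825704 counts, and levels are given as CPM, the reads of a gene scaled to a common library size with the TMM factors of edgeR. GCNT1 itself had few reads, 9, 13 and 8 in the controls against 13, 16 and 35 with overexpression (log2 fold change 0.98, adjusted p = 0.0362 by the quasi-likelihood test of edgeR with Benjamini-Hochberg adjustment). Whether reads of the lentiviral GCNT1 sequence were assigned to this gene is not known from the table, so these counts may not measure the transgene. Without control replicate 1, control replicate 3 or GCNT1 overexpression replicate 3 it was no longer past the threshold, nor under DESeq2, and over the 12 alternatives that give a value its log2 fold change lay between 0.49 and 1.21. The keratins KRT8, KRT18 and KRT19, markers of epithelial cells, had mean levels of 222, 253 and 369 CPM in controls and 202, 222 and 230 CPM with overexpression. Of 5 epithelial markers, KRT19 and CDH1 passed both thresholds of the study, both lower, against 11.1% of all genes downward, while EPCAM had 5.54 and 5.91 CPM. The luminal genes KLK3 and KLK2 had no row in the table, while TMPRSS2 went from 4.20 to 1.75 CPM. Also without a row were 4 fibroblast and 2 leukocyte markers. The endothelial marker PECAM1 went from 1.77 to 4.43 CPM, while CDH5 had no row. The part of these shifts in the results that follow was not tested.

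Both sialyltransferases that changed strongly were downregulated. ST3GAL1 fell to 24.3% of its control level and ST6GALNAC2 to 36.8%, and these were the only members past both thresholds of the study, 0.05 for the adjusted p and 0.58 for the size of the log2 fold change. Among all genes tested, 19.3% passed both thresholds, 11.1% downward and 8.28% upward. Without the minimum on the fold change, 7 of the 9 members had an adjusted p under the threshold, 5 of them lower and 2 higher, against 57.6% of all genes (29.3% lower and 28.3% higher). The 3 control and 3 overexpressing libraries did not overlap in 6 of the 9, against 62.5% of all genes. Since the members were chosen with results of these data known, these counts were not tested against the background and nothing particular to the family is read from them. The median log2 fold change of the 9 was -0.23, and that of all genes was 0.00095. For a single gene, the exact two-sided permutation test of 3 libraries against 3 cannot go below p = 0.10, so the tests rest on the fit across all genes.

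**Figure D1:**
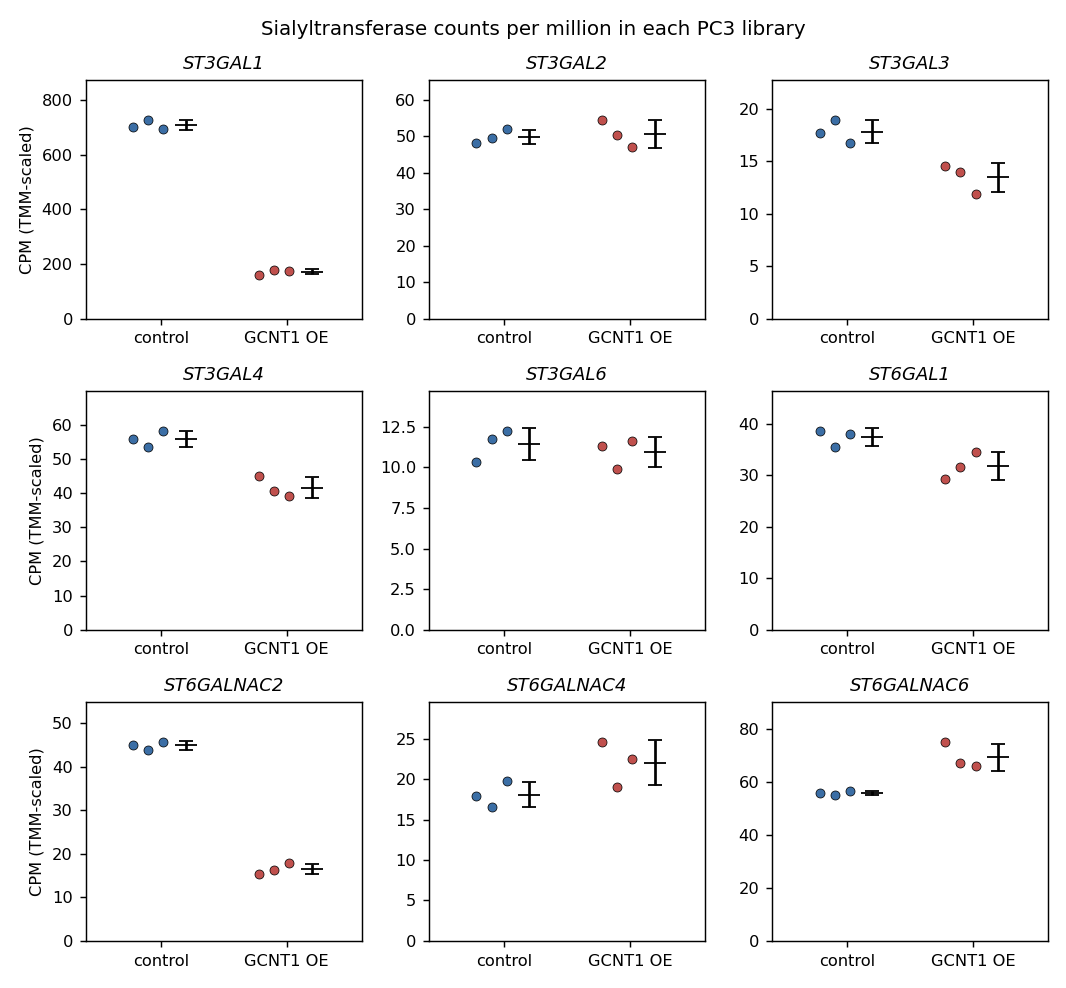
TMM-scaled CPM of the 9 sialyltransferases (vertical axes from 0, one scale per gene) in the 3 control and the 3 GCNT1 overexpressing (GCNT1 OE) libraries. Points are libraries, and the bar beside them is the mean with its SD. ST3GAL1 lies at 692 to 728 CPM in controls and at 160 to 180 CPM with overexpression, and ST6GALNAC2 at 43.9 to 45.7 and 15.4 to 17.8 CPM.

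ST3GAL1 (Entrez identifier 6482), which caps core 1 O-glycans with alpha-2,3-linked sialic acid, lies on the minus strand of chromosome 8 of hg38 from 133454848 to 133571887. It gave 8831, 9063 and 8182 reads in control libraries 1 to 3 against 1856, 2468 and 2463 reads in overexpressing libraries 1 to 3. Every overexpressing library was far below every control library, and the libraries of each group lay close together. In bulk RNA, fewer cells with the transcript and less transcript per cell cannot be told apart. The level fell from 707 ± 18.5 CPM (SD, n = 3) to 172 ± 9.998 CPM (SD, n = 3), which is a 4.12-fold difference. The log2 fold change was -2.04 (standard error 0.05, 95% interval -2.15 to -1.93, adjusted p = 4.08e-12 by the quasi-likelihood test of edgeR with Benjamini-Hochberg adjustment). By p-value ST3GAL1 ranked at place 19 of 12703 genes. By mean level it ranked at place 152 in controls and at place 1248 with overexpression. No sequence of 75 bases, the read length, in its annotated transcripts was found in a transcript of another gene, and a long non-coding RNA gene of the same strand overlaps it.

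ST3GAL2 (6483, chromosome 16 from 70375977 to 70439100), the other enzyme that sialylates core 1 and that also acts on gangliosides, gave 606, 616 and 613 reads in the controls against 631, 690 and 663 reads with overexpression. The groups overlapped, with 49.8 ± 1.87 CPM (SD, n = 3) and 50.6 ± 3.78 CPM (SD, n = 3). The log2 fold change was 0.02 with a 95% interval from -0.13 to 0.17, which lies inside the fold change threshold on both sides (adjusted p = 0.825, edgeR with Benjamini-Hochberg adjustment). Its sign turned without GCNT1 overexpression replicate 1, where it was -0.035. Compared per kilobase of transcript, ST3GAL1 stood at 16.8 ± 0.886 times the level of ST3GAL2 in controls and at 4.02 ± 0.487 times with overexpression (SD, n = 3 each). The 3 libraries of one group did not overlap those of the other in this ratio.

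The surroundings of ST3GAL1 did not fall as far. Within 5 Mb on either side, 8 other tested genes had log2 fold changes between -1.22 and 0.20, with a median of -0.17. By adjusted p, 5 of the 8 were lower and 1 higher, against 29.3% and 28.3% of all genes. Within 2 Mb, 5 tested genes had a median of -0.34, and 2 passed both thresholds downward, against 11.1% of all genes. The part of the region in the fall of ST3GAL1 was not tested. NDRG1, the next tested gene on one side and a gene of stress and hypoxia responses, had 897 ± 29.9 CPM in controls and 476 ± 23.6 CPM with overexpression (log2 fold change -0.91, adjusted p = 4.61e-09, edgeR with Benjamini-Hochberg adjustment). ZFAT, the next tested gene on the other side, encodes a zinc finger protein and had 28.8 ± 1.32 and 30.8 ± 0.341 CPM (log2 fold change 0.10, adjusted p = 0.249 in the same edgeR test). DNAAF11 also passed both thresholds downward, at a low level of 2.45 CPM in controls and 1.06 CPM with overexpression. For the 50 tested genes nearest to ST3GAL1 the median was -0.09, and below it ST3GAL1 fell by 1.95 on the log2 scale. Part of the table outside the family moved in the same way across the 6 libraries. The genes with the profile of log2 CPM closest to that of ST3GAL1, by Euclidean distance after each control mean was subtracted, were SLC14A1, which encodes a urea transporter (distance 0.13), the long non-coding RNA LINC00261 (0.15) and ANPEP, which encodes aminopeptidase N (0.17). Their log2 fold changes were -2.06, -2.03 and -2.04.

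**Figure D2:**
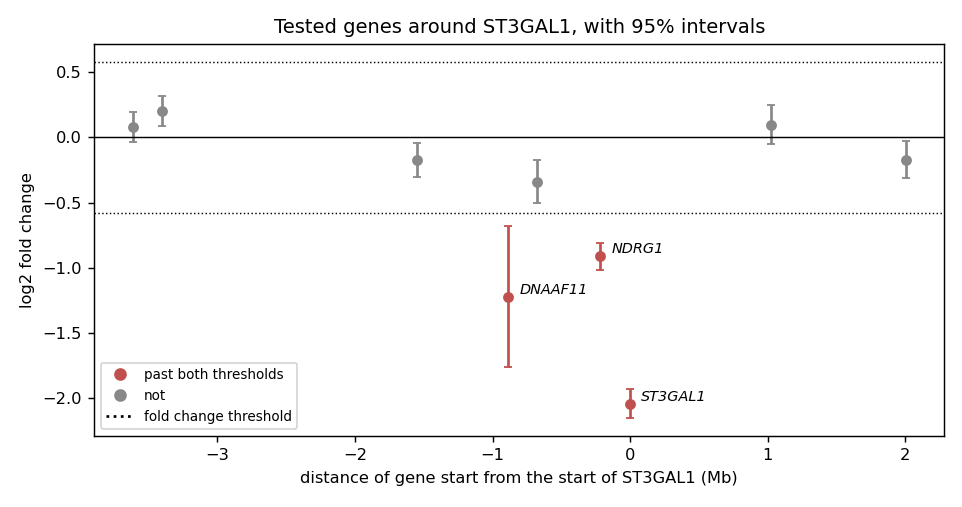
Log2 fold change with its 95% interval (vertical axis) of ST3GAL1 and the 8 other tested genes that start within 5 Mb of it, against the distance of their starts in Mb. Red points passed both thresholds and grey points did not. ST3GAL1 lies at -2.04, below DNAAF11 at -1.22 and NDRG1 at -0.91, while the others lie between -0.34 and 0.20.

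The 3 enzymes that place alpha-2,3-linked sialic acid on N-acetyllactosamine, the acceptor on which sialyl Lewis epitopes are built, moved less. ST3GAL4 (6484, chromosome 11 from 126355686 to 126414638), which acts on type 2 lactosamine, gave 704, 668 and 689 reads in the controls against 521, 558 and 551 reads with overexpression. Its level fell from 56.0 ± 2.32 to 41.6 ± 3.09 CPM (SD, n = 3 each), with no overlap between the groups. The log2 fold change of -0.43 was short of the fold change threshold (95% interval -0.58 to -0.28, adjusted p = 0.000130, edgeR with Benjamini-Hochberg adjustment). The 50 tested genes nearest to ST3GAL4 had a median of -0.36, a difference of -0.07, and the part of the region in this fall was not tested. ST3GAL3 (6487, chromosome 1 from 43707536 to 43931159), which prefers type 1 chains, gave 223, 236 and 198 reads in the controls against 168, 192 and 167 reads with overexpression. That is 17.8 ± 1.11 against 13.4 ± 1.42 CPM (SD, n = 3 each), and the log2 fold change was -0.41 (95% interval from -0.63 to -0.20, with adjusted p = 0.00302 in edgeR with Benjamini-Hochberg adjustment). All overexpressing libraries were below all control libraries for ST3GAL3 as well. Of the 75-base sequences in its transcripts, 8.49% occur in other genes, nearly all of them in a read-through gene that covers the locus.

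ST3GAL6 (10402, chromosome 3 from 98732262 to 98795852), another enzyme of type 2 lactosamine, gave 130, 146 and 145 reads in the controls against 131, 136 and 164 reads with overexpression. At 11.4 ± 0.999 and 10.9 ± 0.920 CPM (SD, n = 3 each) the groups overlapped. The log2 fold change was -0.06 with a 95% interval from -0.30 to 0.17 (adjusted p = 0.639, edgeR with Benjamini-Hochberg adjustment), and without GCNT1 overexpression replicate 2 it was 0.013. At this depth, counting alone gives a standard error of 0.10 on the log2 scale for ST3GAL6, against 0.02 for ST3GAL1.

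ST6GAL1 (6480, chromosome 3 from 186930526 to 187078553), which adds alpha-2,6-linked sialic acid to lactosamine, mostly on N-glycans, gave 486, 442 and 450 reads in the controls against 338, 434 and 487 reads with overexpression. After scaling, the highest overexpressing library (34.5 CPM) was just under the lowest control library (35.5 CPM). The level went from 37.4 ± 1.66 to 31.8 ± 2.66 CPM (SD, n = 3 each), and the log2 fold change was -0.23 (95% interval -0.40 to -0.07, adjusted p = 0.0190, edgeR with Benjamini-Hochberg adjustment). The call was lost in some alternatives while the direction was kept. Without control replicate 1 the log2 fold change was -0.20 (adjusted p = 0.0745 in edgeR), without GCNT1 overexpression replicate 1 it was -0.18 (0.0534) and without GCNT1 overexpression replicate 2 it was -0.22 (0.0544). With library size in place of TMM it was -0.17 (0.0682).

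**Figure D3:**
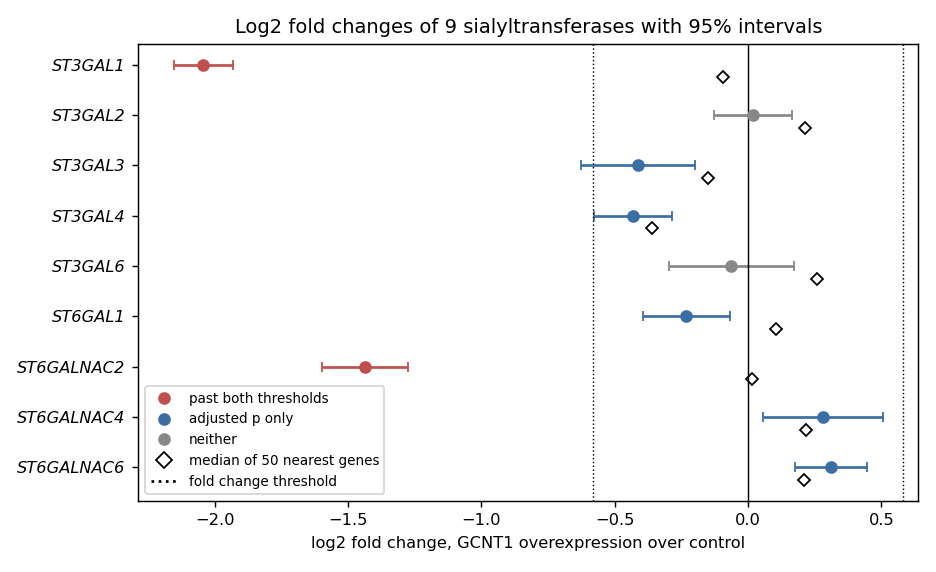
Log2 fold change with its 95% interval (horizontal axis) of the 9 sialyltransferases, coloured by the thresholds they passed, with the median log2 fold change of the 50 nearest tested genes as an open diamond. The dotted lines mark the fold change threshold of 0.58. ST3GAL1 at -2.04 and ST6GALNAC2 at -1.44 lie far from the medians of their surroundings, -0.09 and 0.02.

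The ST6GALNAC enzymes, which attach sialic acid mainly to N-acetylgalactosamine, went in both directions. ST6GALNAC2 (10610, chromosome 17 from 76565377 to 76585860), which sialylates the innermost sugar of O-glycans, gave 566, 546 and 540 reads in the controls against 178, 225 and 251 reads with overexpression. The groups lay far apart, with 44.8 ± 0.921 CPM (SD, n = 3) in controls and 16.5 ± 1.21 CPM (SD, n = 3) with overexpression. The difference was 2.71-fold and the log2 fold change -1.44 (standard error 0.07, 95% interval -1.60 to -1.27, adjusted p = 4.12e-09 by the quasi-likelihood test of edgeR with Benjamini-Hochberg adjustment). The 50 tested genes nearest to it had a median of 0.02. The antisense gene SNHG16 overlaps ST6GALNAC2, and 33.5% of the 75-base sequences of its transcripts also belong to an overlapping protein-coding gene of the same strand, so that reads there could not be told apart.

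ST6GALNAC4 and ST6GALNAC6 lie next to each other on the minus strand of chromosome 9, 1269 bases apart, and were the members with a higher level and an adjusted p under the threshold. ST6GALNAC4 acts on core 1 chains that already carry sialic acid, and ST6GALNAC6 acts on gangliosides. The sequences that precede a start of each are shown because these neighbours moved the same way. Both are the 250 bases before a start listed by RefSeq (GRCh38.p14) that contain no annotated exon, written from 5′ to 3′ on the strand of the gene, with capitals for GGGCGG or its reverse complement CCGCCC, the letters of the GC box. ST6GALNAC6 has 3 listed starts, and the data do not show which one is used. The window printed for it lies inside the annotated gene. Those before its other starts overlap annotated exons and hold the GC box letters 4 and 0 times.
ST6GALNAC4, chr9:127917042-127917291: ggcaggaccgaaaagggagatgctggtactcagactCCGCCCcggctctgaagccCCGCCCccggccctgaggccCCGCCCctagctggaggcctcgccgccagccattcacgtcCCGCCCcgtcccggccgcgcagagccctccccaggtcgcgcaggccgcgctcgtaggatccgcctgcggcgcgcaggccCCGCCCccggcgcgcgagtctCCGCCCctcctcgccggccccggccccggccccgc
ST6GALNAC6, chr9:127897409-127897658: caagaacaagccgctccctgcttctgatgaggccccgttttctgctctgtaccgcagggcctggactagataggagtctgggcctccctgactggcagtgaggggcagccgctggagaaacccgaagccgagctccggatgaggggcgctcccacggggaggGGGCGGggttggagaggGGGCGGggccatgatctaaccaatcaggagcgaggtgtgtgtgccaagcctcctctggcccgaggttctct

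The GC box letters occur 6 times in the first sequence, each time as CCGCCC, and 2 times in the other, each time as GGGCGG. Of 35116 such windows in the RefSeq table, 42.6% hold these letters on at least one strand. These windows have a median of 58% G and C, against 79.2% before ST6GALNAC4 and 64.8% before ST6GALNAC6, so this share is not from windows of like composition. CCAAT, searched on both strands, occurs once, before ST6GALNAC6, and is present in 32.0% of all windows. TATAAA, also searched on both strands, was found in neither and is present in 10.7% of all windows. No searched motif overlaps another in these sequences. The set of windows used here has entries for 7 of the 10 symbols. It holds none for ST3GAL1, ST3GAL2 and ST6GALNAC2, although RefSeq gives positions for these genes.

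ST6GALNAC6 (30815, from 127885321 to 127906616) gave 704, 688 and 668 reads in the controls against 871, 922 and 931 reads with overexpression. Every overexpressing library was above every control library, at 55.9 ± 0.625 and 69.5 ± 5.06 CPM (SD, n = 3 each). The log2 fold change was 0.31 (95% interval 0.17 to 0.45, adjusted p = 0.000934, edgeR with Benjamini-Hochberg adjustment). ST6GALNAC4 (27090, from 127907886 to 127917041) gave 225, 207 and 234 reads in the controls against 285, 262 and 317 reads with overexpression. Its groups overlapped after scaling, at 18.1 ± 1.60 and 22.1 ± 2.80 CPM (SD, n = 3 each), and its log2 fold change was 0.28 (95% interval 0.06 to 0.51, adjusted p = 0.0332 in edgeR after Benjamini-Hochberg adjustment). The adjusted p for ST6GALNAC4 was 0.0680 without control replicate 1, 0.139 without control replicate 2, 0.0966 without GCNT1 overexpression replicate 1 and 0.0956 without GCNT1 overexpression replicate 3, and DESeq2 gave 0.0567. The 50 tested genes nearest to ST6GALNAC4 and ST6GALNAC6 had medians of 0.22 and 0.21, and the genes exceeded these by 0.06 and 0.10. The 10 nearest had medians of 0.28 and 0.27, so ST6GALNAC4 did not exceed that of its 10 nearest. Within 2 Mb of ST6GALNAC4, 66 tested genes had a median of 0.30. The part of the region in these rises was not tested. A read-through gene annotated across ST6GALNAC6 contains 44.8% of the 75-base sequences of its transcripts.

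Levels were compared between the enzymes per kilobase of the MANE Select transcript. In controls ST3GAL1 stood highest at 105 ± 2.76 CPM per kilobase (SD, n = 3), followed by ST3GAL4 at 30.9 ± 1.28. ST6GALNAC2 at 23.5 ± 0.484 and ST6GALNAC6 at 23.2 ± 0.259 came next and differed by less than their spread. ST6GALNAC4 followed at 10.6 ± 0.935, then ST6GAL1 at 8.12 ± 0.362 and ST3GAL3 at 7.90 ± 0.490, which again differed by less than their spread. ST3GAL2 at 6.29 ± 0.237 and ST3GAL6 at 3.58 ± 0.312 stood lowest. With overexpression the order opened with ST6GALNAC6 at 28.8 ± 2.10, ST3GAL1 at 25.5 ± 1.49 and ST3GAL4 at 23.0 ± 1.71 CPM per kilobase, where the libraries of ST3GAL1 and ST3GAL4 overlapped. ST6GALNAC4 stood at 12.9 ± 1.64 and ST6GALNAC2 at 8.67 ± 0.636. Below these, ST6GAL1 at 6.90 ± 0.578, ST3GAL2 at 6.39 ± 0.477 and ST3GAL3 at 5.96 ± 0.629 each differed from the next by less than their spread, and ST3GAL6 stood last at 3.42 ± 0.288. The order depends on which transcript is made, which the counts do not show. With the length of all annotated exons, ST3GAL1 ranked first in both groups, whereas with the MANE Select length it ranked first in controls and behind ST6GALNAC6 with overexpression.

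Summed over the 9 enzymes, the level per kilobase was 219 ± 1.08 CPM in controls and 122 ± 3.56 CPM with overexpression (SD, n = 3 each), so the sum fell to 55.4% of control. Without ST3GAL1 the sum was 114 ± 2.99 and 96.1 ± 5.02 CPM per kilobase, which is 84.1% of control. ST3GAL1 made up 48.0% ± 1.28 of the sum in controls and 21.0% ± 1.80 with overexpression. The core 1 enzymes ST3GAL1 and ST3GAL2 together held 50.9% ± 1.22 of the sum in controls and 26.3% ± 1.66 with overexpression. The share of the lactosamine alpha-2,3 enzymes ST3GAL3, ST3GAL4 and ST3GAL6 was 19.3% ± 0.376 and 26.6% ± 1.15, although their summed level went from 42.4 ± 0.939 to 32.4 ± 2.26 CPM per kilobase. The share of the 3 ST6GALNAC enzymes was 26.1% ± 0.730 and 41.4% ± 1.43, at summed levels of 57.4 ± 1.67 and 50.4 ± 3.09 CPM per kilobase. With the length of all annotated exons the lactosamine share was 9.08% and 14.7%, the core 1 share 64.2% and 38.7% and the ST6GALNAC share 24.2% and 42.2%, so the sizes of the shares depend on the length used. Shares of a sum rise when another member falls, and these are descriptions of transcripts, not of enzyme activity.

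**Figure D4:**
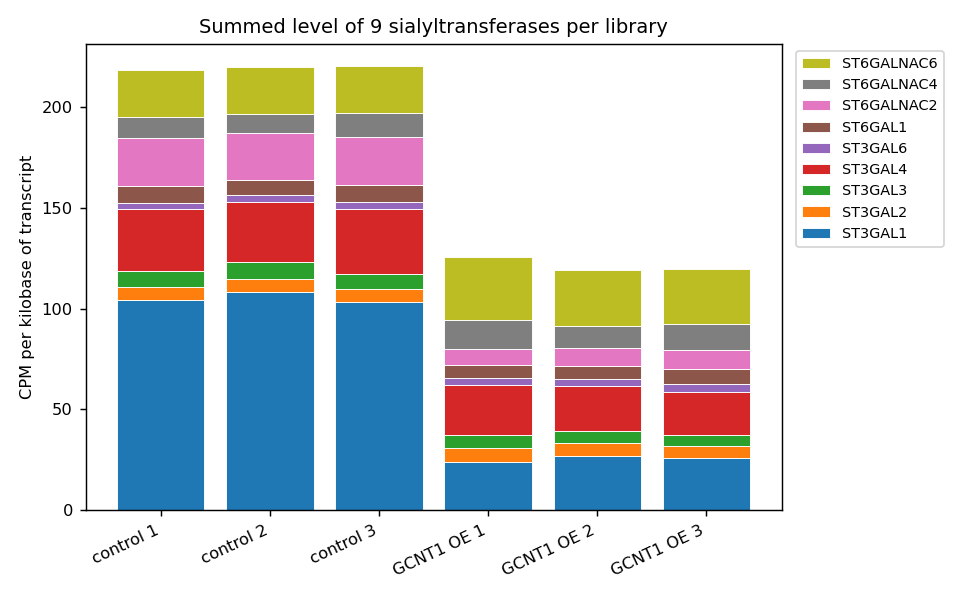
CPM per kilobase of transcript (vertical axis) of the 9 sialyltransferases, stacked for each of the 3 control and 3 GCNT1 overexpressing (GCNT1 OE) libraries. The bars reach 218 to 220 in controls and 119 to 126 with overexpression, and most of the difference lies in the ST3GAL1 segment, 103 to 108 against 23.9 to 26.8.

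The rest of the family was measured at low levels. Of 10 other sialyltransferase genes looked for, 3 had a row, and ST6GAL2 and ST3GAL5 passed both thresholds, both lower. Both have a row only through their level in the controls, since the table holds genes with about 1 CPM or more in 3 libraries, so this count is not read against the 11.1% of all genes that passed downward. ST6GAL2, which like ST6GAL1 acts on lactosamine, gave 36, 42 and 30 reads in the controls against 0 reads in all 3 overexpressing libraries. This is at least 12.7-fold lower, taking the mean CPM of 3 counts per library as the floor, which covers counting error only (adjusted p = 7.63e-07, edgeR with Benjamini-Hochberg adjustment). ST3GAL5, the enzyme that makes the ganglioside GM3, gave 40, 37 and 46 reads in the controls against 13, 21 and 9 reads with overexpression (log2 fold change -1.60, adjusted p = 0.000195 in edgeR after Benjamini-Hochberg adjustment). ST8SIA4, a polysialic acid synthase, gave 32, 30 and 22 reads in the controls against 20, 29 and 31 reads with overexpression, and its groups overlapped (log2 fold change -0.17). These 3 genes had 2.27 to 3.35 CPM in controls, well below every member described above.

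The supply of CMP-sialic acid was tested in full and none of its 5 genes passed both thresholds in edgeR, limma-voom or DESeq2, against 19.3% of all genes in edgeR, while 2 had an unadjusted p under 0.05 in each. By adjusted p in edgeR 1 was higher and 1 lower, against 28.3% and 29.3% of all genes. NANS, which makes sialic acid phosphate, had a log2 fold change of 0.38, from 58.1 to 75.9 CPM (adjusted p = 0.000221 in edgeR), where its 50 nearest genes had a median of 0.44. NANP, the phosphatase of the next step, had -0.24 (adjusted p = 0.0198 in edgeR), and its 50 nearest genes a median of -0.19. GNE, which starts the pathway, had 0.02 (adjusted p = 0.813), CMAS, which activates sialic acid, 0.09 (0.219), and the transporter SLC35A1 -0.16 (0.0875), all from edgeR with Benjamini-Hochberg adjustment. The call of NANP was lost under library size alone, and without control replicate 1, control replicate 2, GCNT1 overexpression replicate 2 or GCNT1 overexpression replicate 3. Of 10 genes that remove, recycle or modify sialic acid, 5 had a row and none passed both thresholds in any of the 3 tools, against 19.3% of all genes in edgeR, with 2 at an unadjusted p under 0.05 in each. By adjusted p in edgeR 2 of the 5 were under the threshold, against 57.6% of all genes. SLC17A5, which exports sialic acid from lysosomes, rose by 0.27 on the log2 scale (adjusted p = 0.00632 in edgeR), where its 50 nearest genes had a median of -0.15. The sialic acid esterase SIAE changed by -0.29 (adjusted p = 0.00351 in edgeR), where its 50 nearest genes had a median of -0.40. With library size the calls by adjusted p in this list were 2 higher and 1 lower. Without control replicate 1 or GCNT1 overexpression replicate 1 they were 1 higher and 2 lower.

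The enzymes that build the O-glycan core, the acceptor of ST3GAL1 and ST6GALNAC2, went the other way. Besides GCNT1, which is overexpressed by design and has a row only through its level with overexpression, 4 had a row, and all 4 had an adjusted p under the threshold and a higher level with overexpression, against 28.3% of all genes. GCNT3 passed both thresholds, as did GCNT1. GCNT3, a core 2 and core 4 branching enzyme, gave 26, 21 and 14 reads in the controls against 62, 97 and 87 reads with overexpression (log2 fold change 1.91, adjusted p = 4.26e-06, edgeR with Benjamini-Hochberg adjustment). The core 1 synthase C1GALT1 had a log2 fold change of 0.26, where its 50 nearest genes had a median of 0.30. Its chaperone C1GALT1C1 had 0.51, from 30.4 to 43.3 CPM, where its 50 nearest genes had a median of 0.14. B3GNT3, which extends core 1, had 0.52. Per kilobase, GCNT1 stood at 0.00138 ± 0.000305 times the level of ST3GAL1 in controls and at 0.0111 ± 0.00521 times with overexpression (SD, n = 3 each). The ratio was 0.00845, 0.00782 and 0.0171 in overexpressing libraries 1 to 3, so replicate 3 carries much of the mean. The ratio covers the reads assigned to the GCNT1 gene, which may leave out reads of the transgene.

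Some of the galactosyl and lactosamine enzymes make the acceptors of the other ST3GAL enzymes and of ST6GAL1, while others, such as B3GALT6, serve other glycans. The counts of this list thus do not describe lactosamine synthesis alone. Of 16 listed, 13 had a row and 4 passed both thresholds, all lower. Of the 4, B3GNT7 and B3GNT4 have a row only through their level in the controls and B3GALT5 lay near 1 CPM, so this count is not read against the 11.1% of all genes that passed downward. With limma-voom, DESeq2, library size alone or the replicate block, and without control replicate 1, control replicate 2 or GCNT1 overexpression replicate 2, 3 passed. B3GNT7, which extends polylactosamine, gave 42, 35 and 34 reads in the controls against 1, 3 and 5 reads with overexpression (log2 fold change -3.67). The 50 tested genes nearest to B3GNT7 had a median of -0.52, and 23 of them passed both thresholds downward, against 11.1% of all genes. B3GNT4 had a log2 fold change of -1.75, and B3GALT1 and B3GALT5, which make type 1 chains, had -0.72 and -0.88. B3GALT5 was counted at most 23 times in a library, its groups overlapped, and its adjusted p was under the threshold in 4 of 12 alternatives. B4GALT1, the main galactosyltransferase of type 2 lactosamine, had 0.38, from 54.6 to 71.0 CPM (adjusted p = 0.000143, edgeR with Benjamini-Hochberg adjustment). At any fold change 2 of the 13 were higher and 7 lower by adjusted p, against 28.3% and 29.3% of all genes, and under library size alone 4 were higher and 5 lower. Of 7 fucosyltransferases listed for sialyl Lewis epitopes, FUT4 and FUT11 had a row and neither passed both thresholds in edgeR, limma-voom or DESeq2, against 19.3% of all genes in edgeR, while both had an unadjusted p under 0.05 in each and an adjusted p under the threshold in edgeR, against 57.6% of all genes. FUT4, which adds fucose to lactosamine, changed by -0.37 on the log2 scale (adjusted p = 0.0262, edgeR with Benjamini-Hochberg adjustment). It was not under the threshold in DESeq2, glmTreat or with library size, nor without control replicate 3, GCNT1 overexpression replicate 1 or GCNT1 overexpression replicate 2. FUT11 was listed under an older symbol. RefSeq names it POFUT4, for a protein O-fucosyltransferase, so its values are not read as those of a sialyl Lewis enzyme. That leaves FUT4 as the only such enzyme of the list with a row. FUT11 gave 1902, 1978 and 1729 reads in the controls against 1186, 1659 and 1634 reads with overexpression. Its level was 152 ± 6.36 CPM in controls and 113 ± 9.46 CPM with overexpression (SD, n = 3 each), with no overlap between the groups, and the log2 fold change was -0.43 (adjusted p = 7.80e-05, edgeR with Benjamini-Hochberg adjustment).

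**Figure D5:**
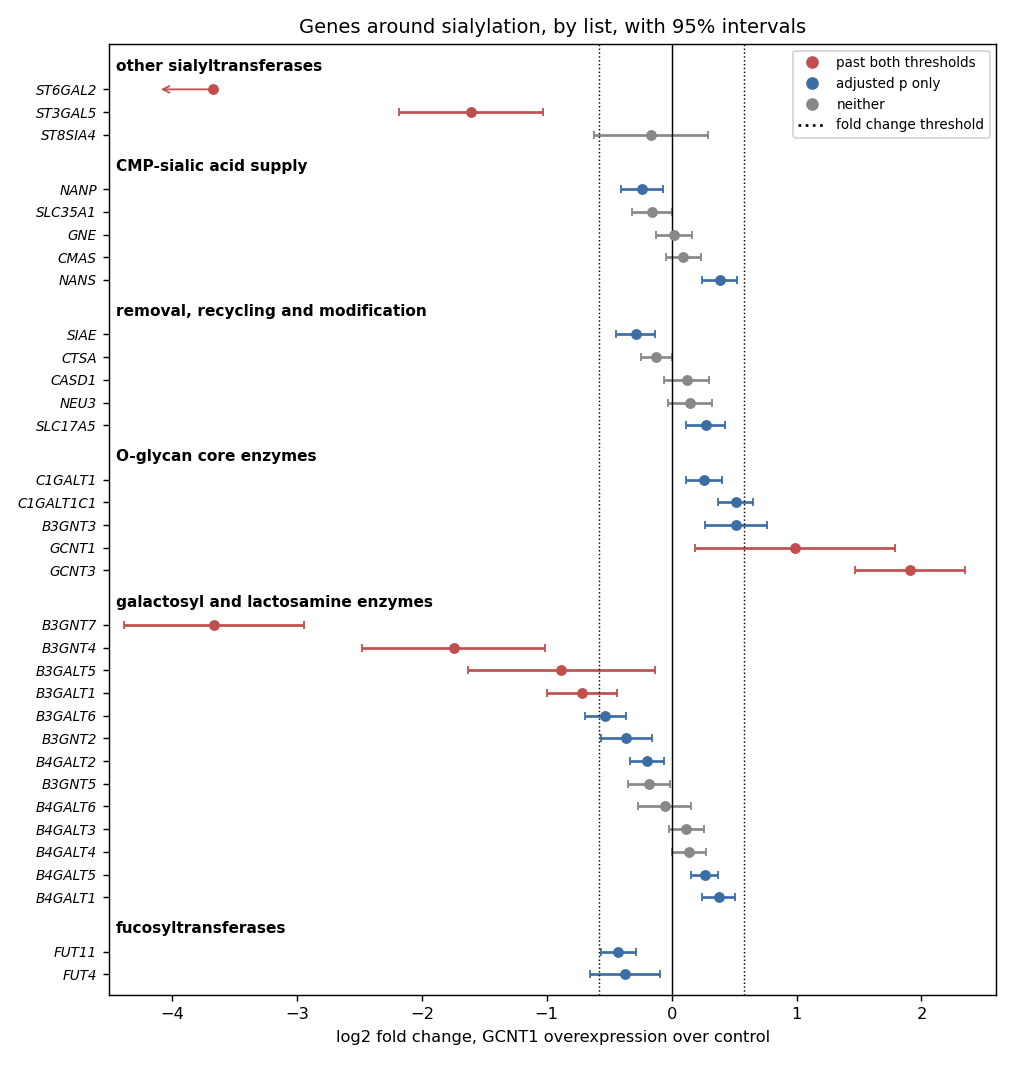
Log2 fold change with its 95% interval (horizontal axis) of the tested genes of 6 lists around sialylation, coloured by the thresholds they passed, with dotted lines at the fold change threshold of 0.58. ST6GAL2, at 0 counts in the overexpressing libraries, is drawn at its bound of 12.7-fold lower with an arrow. The 5 O-glycan core enzymes lie above 0, from 0.26 to 1.91, while the 5 genes of CMP-sialic acid supply lie between -0.24 and 0.38.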

How the data were processed

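RNA from 3 control and 3 GCNT1 overexpressing PC3 lines was sequenced by the authors as single reads of 75 bp. Trimming with Cutadapt and alignment to hg38 by HISAT2 preceded counting in featureCounts, and the authors deposited raw counts per gene, without normalization or pooling. The annotation and the use of strand in counting are not given in the sources used here. On library totals alone, the lowest gene still reached 1.01 CPM in its 3 highest libraries, and genes below such a level were absent.

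The fit covered all 6 columns (R 4.3.3, edgeR 4.0.16, filterByExpr, which kept every gene, TMM factors, quasi-likelihood test, no replicate block, Benjamini-Hochberg adjustment over 12703 genes). Of these, 12661 matched a RefSeq symbol by Entrez identifier, and FUT11 was matched as a synonym. Thresholds were 0.05 for the adjusted p and 0.58 for the size of the log2 fold change. Libraries of a group differed by more than sampling noise (chi-square per degree of freedom 1.65 to 5.61). Transcript lengths and overlaps came from GENCODE 44. Levels per length used MANE Select transcripts, and profiles used log2(CPM + 0.1).

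Alternatives were limma-voom (limma 3.58.1), DESeq2 1.42.0, RLE factors, library size, other filters, glmTreat, a replicate block and the omission of each library in turn. All members and the called genes of the lists were named, together with the 3 genes of closest profile and the neighbours of ST3GAL1; other genes of the lists were named after their values were seen. The members and lists were chosen with earlier results of these data known. Some marker genes are not reported here. The tests were checked on simulated counts.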

Additional observations from a re-analysis of the deposited data

How the results depend on the processing

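ST3GAL1 and ST6GALNAC2 were the 2 called members under all 14 alternatives. Under the 13 of these that give a fold change, the log2 fold change of ST3GAL1 lay between -2.07 and -1.98 and that of ST6GALNAC2 between -1.49 and -1.38. Single members were compared with an alternative 117 times. Of these comparisons, 106 kept their direction and side of the adjusted p, 9 were no longer past it and 2 changed sign. The fit without a filter equals the main fit, since filterByExpr kept every gene. Its comparisons among the 117, and its calls among the 14 alternatives, could not differ. The sign changes were ST3GAL2 without GCNT1 overexpression replicate 1 (-0.035) and ST3GAL6 without GCNT1 overexpression replicate 2 (0.013), where neither was past the adjusted p. The 9 belong to ST6GAL1 (library size alone, -0.17, and 3 single libraries left out) and ST6GALNAC4 (DESeq2, 0.28, and 4 single libraries left out). Over all single libraries left out, the log2 fold change of ST6GAL1 ranged from -0.30 to -0.18, that of ST6GALNAC4 from 0.20 to 0.38, that of ST3GAL2 from -0.035 to 0.071 and that of ST3GAL6 from -0.13 to 0.013. The cause was not tested. Over all genes glmTreat called 1392 in place of 2457. The minimum of 10 counts in every library, which removes genes with few counts in either group, left 0 called genes among the other sialyltransferases, 1 among the lactosamine enzymes and 1 among the O-glycan core enzymes, where 2 were called without it. DESeq2 and glmTreat also called 1 O-glycan core enzyme, leaving out single libraries gave 1 to 3 (3 without GCNT1 overexpression replicate 1, where B3GNT3 was added), and glmTreat called 2 lactosamine enzymes. With all annotated exons as lengths, chosen after the data were seen, ST3GAL1 made up 60.3% of the summed level in controls and 30.6% with overexpression.

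The labels number the libraries 1 to 3 in each group, but deviations from the group means of same-numbered libraries correlated at -0.27, -0.0024 and -0.11 across genes, so the numbers were not taken as pairs. With the replicate block 2 members were called, and 7 had an adjusted p under the threshold, the same numbers as without it. At these depths a log2 difference of about the counting error, 0.10 for ST3GAL6, could not be resolved.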
